A study of Mus musculus with 2 samples.

Results

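The semaphorins, plexins and neuropilins are guidance ligands and their receptors. The 31 genes described here were chosen by family name, as all semaphorin, plexin and neuropilin genes listed for this purpose, and each was found once among the 55536 genes of the GENCODE M21 gene table. They comprise 20 semaphorins, 9 plexins and 2 neuropilins. RNA with poly(A) tails was sequenced from the hindbrain of mouse embryos of strain B6NCrl at embryonic day 12.5. The single group held 2 pools of mixed sex, which the labels call biological replicates, with 120 embryos in pool 1 and 88 in pool 2. No genotype, treatment or other stage was compared, so every difference reported here is between genes, between transcripts, between annotations or between the pools.

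Semaphorins share an extracellular sema domain and steer growing axons and migrating cells, mostly by repulsion. Class 3 members are secreted and in most cases need a neuropilin, which binds the ligand, and a plexin A, which carries the signal. Classes 4, 5 and 6 span the membrane and bind plexins directly, and the class 7 member is held in the membrane by a lipid anchor. Plexins act through a cytoplasmic GTPase-activating domain on small GTPases that control the cytoskeleton. In the hindbrain this family is known for guiding cranial motor axons and neural crest cells and, at later stages, for the migration of cerebellar granule cells.

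Genes drew 31469575 expected counts in pool 1 against 29261472 in pool 2, while spike-in RNAs took 3.31% and 4.25% of counts. Members took 0.199% and 0.209% of the gene counts. Of 9 genes that mark hindbrain position, with summed levels of 218.2 and 278.9 TPM, 8 reached 1 TPM (a level of abundance scaled for transcript length and library total) in both pools, and 2 of 6 forebrain genes did. The 6 forebrain genes summed to 28.4 and 28.7 TPM, with Lhx2 alone at 24.17 and 23.79. Neuron markers, 8 of 8 at 1 TPM or more in both pools, summed to 1958 and 2036 TPM. Radial glia and progenitor markers, also 8 of 8, summed to 2644 and 2437 TPM. Markers of other cells were present too. Cranial ganglion and neural crest markers summed to 136.07 and 150.35 TPM (8 of 8). Microglia markers summed to 83.56 and 91.15 TPM (8 of 8) and choroid plexus markers to 348.9 and 411.8 (4 of 5). Summed over 8 genes, skeletal muscle markers stood at 29.8 TPM in pool 1 and 152.9 in pool 2, with 7 of 8 at 1 TPM or more in both pools, and mesenchymal markers at 1308 and 1701 (8 of 8). Summed over 6 genes each, surface epithelium markers stood at 111.5 and 74.4 TPM (6 of 6), cartilage markers at 479.1 and 526.5 (5 of 6) and blood markers at 10427 and 8118 (6 of 6). The tissue was sequenced in bulk, so fewer cells of a type and less RNA per cell cannot be told apart for any gene here.

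Nearly the whole family was detected. Of the 31 genes, 28 stood at 1 TPM or more in both pools, which 61.8% of 22028 protein-coding genes did. The 28 comprised 18 of 20 semaphorins, 8 of 9 plexins and both neuropilins. Sema7a passed 1 TPM in 1 pool only, and Sema3g and Plxnb3 were below it in both. The levels spread over a 741-fold range from Plxnb2 to Plxnb3, with 18 genes at 10 TPM or more in both pools and 13 at 20 TPM or more. The median level was 17.7 TPM over the 31 genes, 5.47 over all protein-coding genes and 21.8 over the protein-coding genes at 1 TPM or more in both pools. Receptors had a median of 30.7 TPM and semaphorins one of 11.2.

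**Figure D1:**
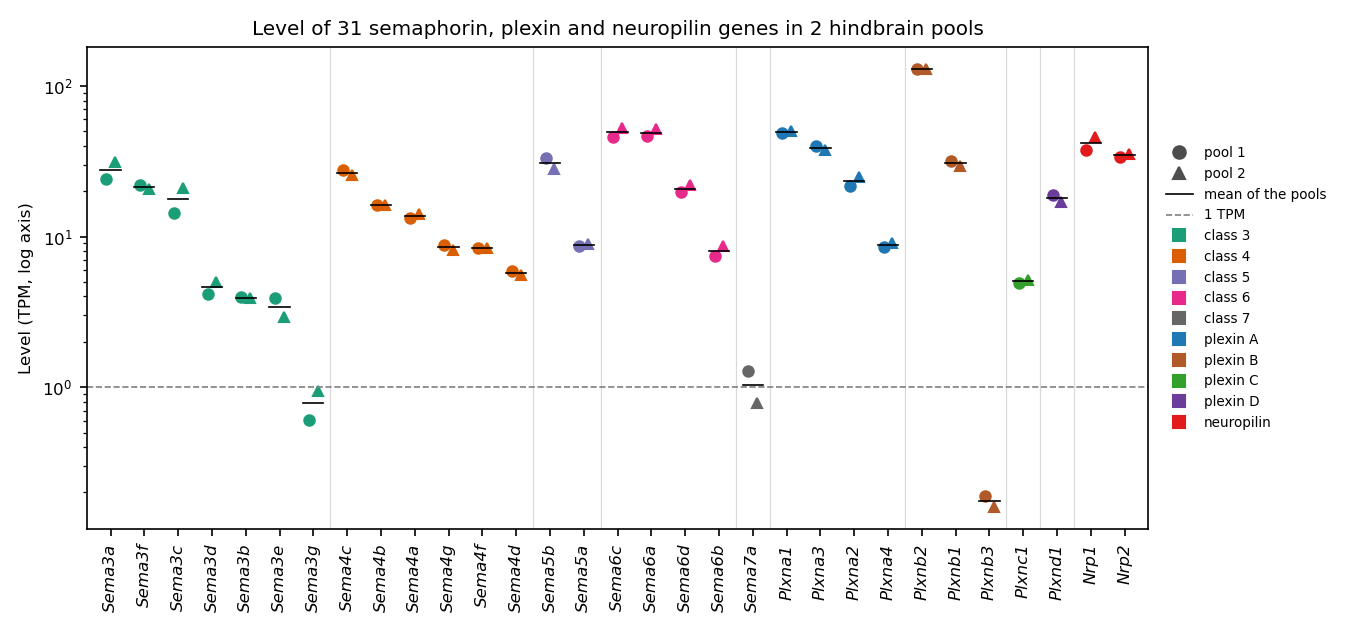
Level of each of the 31 genes in TPM on a log axis, circles for pool 1 and triangles for pool 2, with a black line at the mean and a dashed line at 1 TPM. Colours give the semaphorin class or the receptor family; Plxnb2 lies above all others near 130 TPM, and Plxnb3, Sema3g and, in pool 2, Sema7a lie under the dashed line.

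The secreted class 3 held 7 genes in 2 tiers, with summed levels of 72.95 TPM in pool 1 and 85.55 in pool 2. Sema3a (chr5:13125414-13602565, plus strand, mm10), the repellent that collapses growth cones through Nrp1, stood highest at 23.96 TPM in pool 1 and 31.17 in pool 2. Sema3f, the Nrp2 ligand that guides cranial and spinal motor axons, stood at 21.89 and 20.56 TPM. Sema3c, a neuropilin ligand best known for drawing neural crest cells to the heart, stood at 14.44 and 21.05 TPM. Sema3a stood above Sema3f and Sema3c in both pools, and the levels of the latter pair overlapped. With the older GENCODE M4 annotation the lead of Sema3a was lost, with Sema3a at 18.26 and 23.84 TPM and Sema3f at 23.01 and 21.61. The lower tier began with Sema3d, a guidance cue of neural crest and vessels, at 4.18 and 5.02 TPM. Sema3b, a midline cue for commissural axons, stood at 3.95 and 3.88 TPM. Sema3e, which binds Plxnd1 without a neuropilin and repels vessels, stood at 3.92 and 2.92 TPM. Sema3g, made mainly by endothelium in other tissues, was listed at 0.61 and 0.95 TPM, from 54 and 78 expected counts. Every gene of the upper tier stood above every gene of the lower tier in both pools.

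Class 4, whose transmembrane members bind mostly plexin B receptors, summed to 80.11 TPM in pool 1 and 77.89 in pool 2, spread over 6 genes within a 4.63-fold range. Sema4c, a ligand of Plxnb2, led at 27.53 and 25.60 TPM. Sema4b, found at synapses, stood at 16.20 and 16.16 TPM, and Sema4a, known from the retina and immune cells, at 13.27 and 14.16 TPM. Those 3 genes were ordered alike in both pools and did not overlap. Sema4g, another Plxnb2 ligand, stood at 8.82 and 8.11 TPM, and Sema4f, a neuronal member, at 8.34 in each pool, so that their order was not resolved. Sema4d, or CD100, the classical ligand of Plxnb1, was the lowest at 5.95 and 5.52 TPM. Sema4g had the lower mean in its place over complete-coding transcripts, those with a complete annotated coding sequence (3.57 TPM against 4.89) and with M4 (5.37 against 5.53).

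Class 5 members carry thrombospondin repeats beside the sema domain and act on plexins A1 and A3 in the retina. Sema5b stood at 33.20 TPM in pool 1 and 28.14 in pool 2, and Sema5a at 8.64 and 8.90, a 3.50-fold difference between the means. Sema5b held 77.8% of the class.

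Class 6, whose transmembrane members bind plexin A receptors without a neuropilin, had the highest semaphorin sum: 119.49 TPM in pool 1 and 135.06 in pool 2, or 39.0% of all semaphorin TPM. Sema6c (chr3:95160457-95174024, plus strand, mm10) stood at 46.04 and 52.73 TPM, and Sema6a, the ligand of Plxna2 and Plxna4 that keeps motor cell bodies inside the neural tube by way of boundary cap cells, at 46.23 and 51.85. Their levels could not be ordered. Sema6d, a Plxna1 ligand of the optic chiasm and heart, stood at 19.76 and 21.88 TPM, and Sema6b, a Plxna4 ligand, at 7.46 and 8.60. All 4 genes stood higher in pool 2 by TPM, and lower with counts scaled to spike-in totals. Sema7a, the only class 7 gene and a ligand of Plxnc1 and of integrins, was listed at 1.28 and 0.78 TPM, from 66 and 46 expected counts.

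Among the receptors, Plxnb2 stood apart. This plexin, needed for neural tube closure and for the layering of the cerebellum (gene at chr15:89155549-89180788, minus strand, mm10), was listed at 129.69 TPM in pool 1 and 129.60 in pool 2, 2.63-fold above the next gene, and held 80.8% of plexin B TPM. Plxnb1, the Sema4d receptor that activates RhoA through PDZ-domain exchange factors, stood at 31.87 and 29.47 TPM. Plxnb3, a receptor linked to oligodendrocytes and to Sema5a, was listed at 0.19 and 0.16 TPM from only 20 and 15 expected counts. The 3 plexin B genes were therefore separated by gaps far wider than the spread between pools.

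The 4 plexin A genes, co-receptors for class 3 and receptors for class 6, summed to 118.89 TPM in pool 1 and 121.15 in pool 2. Plxna1 stood at 48.61 and 50.04 TPM and Plxna3 at 40.12 and 37.28. Plxna2, a receptor of Sema6a, stood at 21.61 and 24.81 TPM, and Plxna4, which also binds Sema6a, at 8.55 and 9.02. The order Plxna1, Plxna3, Plxna2, Plxna4 held in both pools without overlap with all M21 transcripts. Over complete-coding transcripts Plxna3, at 19.71 and 21.21 TPM, overlapped Plxna2, at 19.04 and 22.88. With M4, Plxna1, at 43.22 and 41.31 TPM, overlapped Plxna3, at 42.06 and 39.13. Plxnd1, the Sema3e receptor known from endothelium, stood at 18.99 and 16.83 TPM, and Plxnc1, the Sema7a receptor, at 4.95 and 5.18. For reference, 8 endothelial markers summed to 137.8 TPM in pool 1 and 144.0 in pool 2, all 8 at 1 TPM or more in both pools, and their part in the Plxnd1 level was not tested.

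Both neuropilins were well represented. Nrp1 (chr8:128358604-128503363, plus strand, mm10), the main Sema3a receptor and a co-receptor for vascular endothelial growth factor, stood at 37.54 TPM in pool 1 and 45.67 in pool 2, and Nrp2, the main Sema3f receptor, at 33.88 and 35.21. Their ranges did not overlap, although the gap was small beside the 5.75 TPM standard deviation of Nrp1 (n = 2). The order turned with the older GENCODE M4 annotation, with Nrp1 at 23.58 and 29.71 TPM and Nrp2 at 35.58 and 36.95. It was lost over transcripts with a complete coding sequence, where Nrp1 stood at 27.35 and 34.79 TPM and Nrp2 at 31.37 and 31.61.

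Summed receptor TPM exceeded summed semaphorin TPM in both pools, by a factor of 1.19 in pool 1 and 1.14 in pool 2. In the ligand and receptor pairs picked for this comparison, the receptor gene stood higher except in those of Sema6a. Sema5a and Plxnb3, linked above, were not among the pairs, and there the receptor stood lower (0.19 and 0.16 TPM against 8.64 and 8.90). Receptors also had the higher median over the family, at 30.7 TPM against 11.2, so a higher receptor was not particular to pairs. The level ratio of Nrp1 to Sema3a was 1.57 in pool 1 and 1.47 in pool 2, and that of Nrp2 to Sema3f 1.55 and 1.71. Plxnd1 stood 4.84-fold and 5.76-fold above Sema3e, Plxnb1 5.36-fold and 5.34-fold above Sema4d, and Plxnb2 4.71-fold and 5.06-fold above Sema4c. Sema6a ran the other way, at a Plxna2 to Sema6a ratio of 0.467 and 0.478 and a Plxna4 to Sema6a ratio of 0.185 and 0.174. Over complete-coding transcripts these ratios were 0.931 and 0.868 for Plxna2 and 0.399 and 0.321 for Plxna4, and the mean ratio of Plxnb2 to Sema4c was 2.78 in place of 4.89. These ratios describe RNA from the whole tissue and do not say that a ligand and its receptor were in neighbouring cells. In the order of all 31 genes by mean TPM, 13 of 30 neighbouring pairs were apart beyond the spread of the pools and 17 were not.

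**Figure D2:**
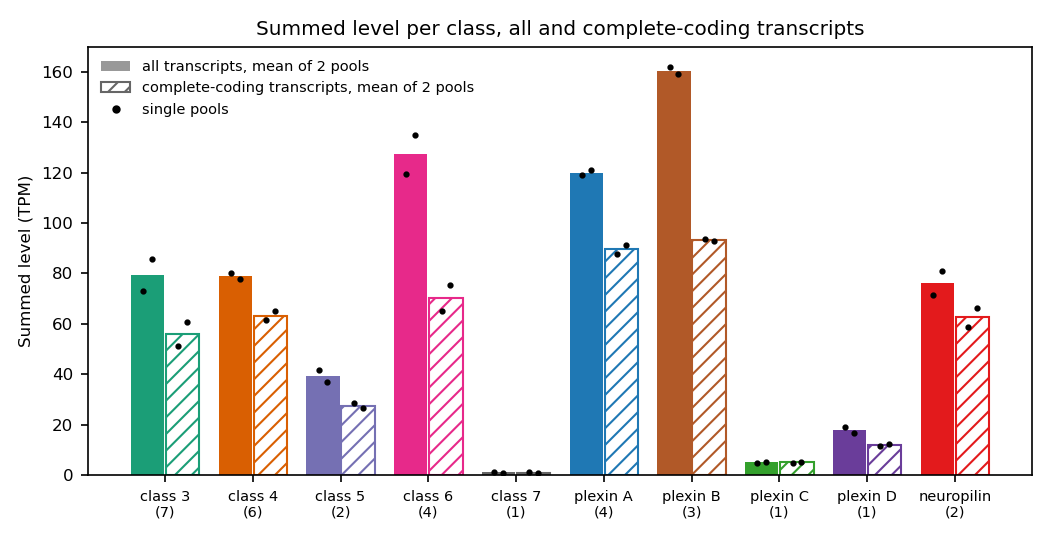
Summed level in TPM of each semaphorin class and receptor family, with the number of genes in parentheses; filled bars are all transcripts and hatched bars are transcripts with a complete annotated coding sequence, both as means of 2 pools, with dots for single pools. Class 6 leads the semaphorins and plexin B the receptors with all transcripts, and the gaps narrow in the hatched bars, where plexin B falls from 160.5 to 93.2 TPM and class 6 from 127.3 to 70.3.

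A gene's TPM is the sum over all its annotated transcripts, and these include fragments, retained introns and targets of nonsense-mediated decay. Counting only transcripts with a complete annotated coding sequence lowered the levels unevenly. These transcripts held a median of 77.0% of TPM over the members and 83.0% over protein-coding genes, and 6 members fell under 60%. Of 12270 protein-coding genes with several transcripts and 1 TPM or more in both pools, 24.6% did. Plxnb3 is among the 6 although it lies below 1 TPM. Plxnb2 fell from 129.6 to 67.1 TPM and remained the highest gene. Its 834-base processed transcript Plxnb2-205 held 38.2% of the gene's TPM but only 7.70% of its expected counts. All 834 of its bases lie inside the exons of the full-length Plxnb2-202, so reads from this 3′ stretch fit either model. Plxna1 showed the same pattern on a smaller scale, with a 459-base decay target, Plxna1-205, at 19.1% of TPM and 0.986% of counts.

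Sema6c fell from 49.4 to 22.8 TPM on this scale, and Sema6a from 49.0 to 23.4. The highest semaphorin was then Sema4c at 24.1 ± 0.35 TPM (SD, n = 2), within the spread of Sema6a at 23.4 ± 4.17. For Sema6c, the decay target Sema6c-212 held 17.6% of TPM. For Sema6a, the retained-intron transcript Sema6a-209 was the top isoform by TPM in pool 1 at 31.3%, whereas the coding transcript Sema6a-206 was in pool 2 at 24.0%. By expected counts, the coding transcript Sema6a-201 led in both pools, at 39.4% in pool 1 and 33.9% in pool 2. Plxna3 fell from 38.7 to 20.5 TPM and Sema4g from 8.47 to 3.57. Sema4f, Sema6b, Plxna4 and Plxnc1 kept over 90% of their TPM in a single coding transcript, so their gene levels and coding levels were nearly equal. The number of members at 1 TPM or more in both pools was also 28 with coding transcripts only.

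**Figure D3:**
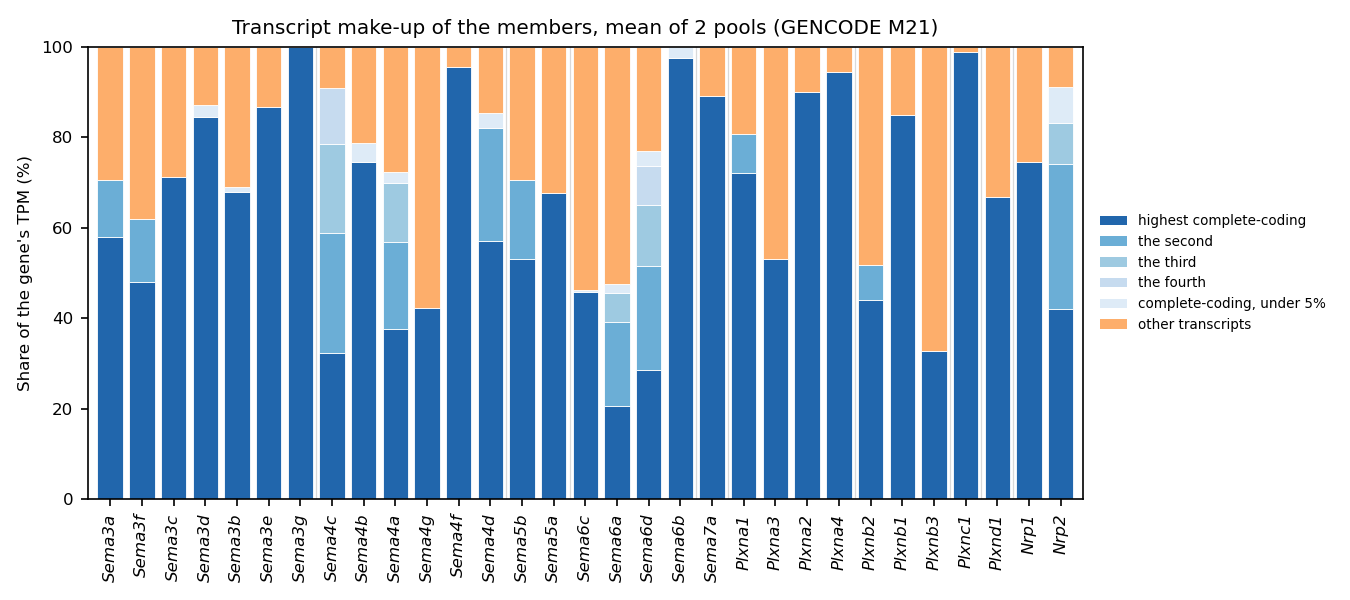
Share of each gene's TPM, as the mean of 2 pools, held by its complete-coding transcripts (blue, the highest darkest) and by all other transcripts (orange). Genes such as Sema4f and Plxnc1 are almost wholly 1 blue block, Nrp2 and Sema6d are divided among several, and orange takes more than blue in Sema6c, Sema6a, Sema4g and Plxnb3.

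For 14 of the 31 genes, among them Plxnb3 at below 1 TPM, the top isoform held under 60% of TPM. The same was true of 42.2% of protein-coding genes with several transcripts and 1 TPM or more in both pools. In 2 genes, Sema6a and Sema4c, the top isoform by TPM differed between the pools, as in 9.65% of those protein-coding genes. Sema4c-201 held 38.6% in pool 1 and 25.8% in pool 2, and Sema4c-203 held 20.97% and 32.06%, but both have the same coding sequence. Of 11 genes with several complete-coding transcripts at 5% of TPM or more, 6 had the same coding sequence in all of them, and 5 had several coding sequences. Those were Nrp2, Sema6d, Sema3f, Sema5b and Sema6a.

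Nrp2 is known for isoforms with different membrane-proximal and cytoplasmic ends, and both kinds were read here. Nrp2-204 held 40.2% of the gene's TPM in pool 1 and 43.7% in pool 2, and Nrp2-201 held 34.0% and 30.5%. The coding sequences of these transcripts are shared up to coding base 2425 and then part: Nrp2-204 runs on for 305 coding bases in the exon at chr1:62815333-62815637, and Nrp2-201 for 296 bases in exons between chr1:62786302-62795989 (mm10, plus strand). Another form, Nrp2-202, inserts a 51-base coding exon at chr1:62812534-62812584 before the Nrp2-204 end. The sequences below show where they part, with 30 shared bases in lower case and the isoform's own bases in capitals (the first 60 for each end, and the whole inserted exon followed by shared bases).
Nrp2-204: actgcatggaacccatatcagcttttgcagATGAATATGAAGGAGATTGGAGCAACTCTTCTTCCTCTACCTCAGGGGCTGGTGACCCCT
Nrp2-201: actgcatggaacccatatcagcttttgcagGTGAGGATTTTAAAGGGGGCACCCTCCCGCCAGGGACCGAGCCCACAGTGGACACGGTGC
Nrp2-202: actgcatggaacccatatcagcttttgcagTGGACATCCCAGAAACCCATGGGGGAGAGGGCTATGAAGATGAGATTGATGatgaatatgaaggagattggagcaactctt
Over complete-coding transcripts alone, the Nrp2-204 end was used by 57.7% of TPM in pool 1 and 61.6% in pool 2. The whole 296-base Nrp2-201 end was used by 36.7% and 33.9%, and the 51-base exon was included in 11.06% and 12.97%. Of 6 complete-coding transcripts, 4 held the Nrp2-204 end and 1 the whole Nrp2-201 end. A form with only part of the Nrp2-201 end would not be counted in its share. The Nrp2-204 end was thus the more used in both pools, by more than the pools differed.

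Sema6d forms differed on the membrane side of the sema domain. Sema6d-208, which held 28.2% of the gene's TPM in pool 1 and 28.8% in pool 2, lacks both a 57-base exon at chr2:124660705-124660761 and a 168-base exon at chr2:124662204-124662371 (mm10, plus strand). The inserted exons are printed in capitals between 30 coding bases on each side, as in forms that hold only 1 of them. For the 57-base exon this is Sema6d-204 (8.25% of TPM in pool 1, 8.95% in pool 2), which has further coding bases elsewhere. For the 168-base exon it is Sema6d-203 (11.4% and 15.3%). Sema6d-206, at 27.2% and 19.0%, holds both exons, so the inclusion shares given below overlap.
Sema6d 57-base exon: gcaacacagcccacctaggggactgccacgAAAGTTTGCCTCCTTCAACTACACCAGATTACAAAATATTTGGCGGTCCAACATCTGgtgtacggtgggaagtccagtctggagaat
Sema6d 168-base exon: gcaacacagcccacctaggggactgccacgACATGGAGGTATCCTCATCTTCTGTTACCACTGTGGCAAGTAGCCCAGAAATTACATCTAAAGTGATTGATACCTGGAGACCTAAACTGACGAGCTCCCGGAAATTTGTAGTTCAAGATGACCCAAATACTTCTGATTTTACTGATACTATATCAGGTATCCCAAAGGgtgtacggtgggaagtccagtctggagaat
Both lengths are multiples of 3, so each keeps the reading frame. Of complete-coding TPM, the 57-base exon was included in 48.2% in pool 1 and 40.8% in pool 2, and the 168-base exon in 50.4% and 44.3%. Inclusion and skipping were thus of similar size, with inclusion of both exons lower in pool 2.

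Sema3f and Sema5b each had a minor coding form. Sema3f-204 holds a 93-base coding exon at chr9:107691356-107691448 (minus strand) that the main form lacks, and it made up 25.3% of complete-coding Sema3f TPM in pool 1 and 20.1% in pool 2. Sema5b-202 has 87 further coding bases at chr16:35660071-35660157 (plus strand) and made up 21.9% and 27.8%. The added bases are in capitals.
Sema3f 93-base exon: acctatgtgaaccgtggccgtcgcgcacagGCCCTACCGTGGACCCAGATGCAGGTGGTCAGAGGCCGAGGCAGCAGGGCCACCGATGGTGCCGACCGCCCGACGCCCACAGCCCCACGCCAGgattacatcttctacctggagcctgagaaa
Sema5b 87-base segment: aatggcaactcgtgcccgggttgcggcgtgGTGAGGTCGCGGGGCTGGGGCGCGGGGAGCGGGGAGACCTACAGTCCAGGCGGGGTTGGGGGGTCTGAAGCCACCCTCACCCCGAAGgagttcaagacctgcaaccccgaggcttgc
In both genes the form without the segment was the main one in each pool. These shares rest on the authors' assignment of reads to transcripts, and no reads across single junctions were counted here.

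The pools agreed closely for most of the family. Ratios between the pools were taken from expected counts scaled with TMM, a method that sets the bulk of genes equal, and each was given a 95% counting interval, which covers counting error only. Over the 30 members with 50 or more mean counts the median log2 ratio of pool 2 over pool 1 was 0.04, and over all 14989 such genes 0.00. The median size of the log2 ratio was 0.10 in members and 0.10 over all genes. Only Sema3g, at a log2 ratio of 0.63 (interval 0.12 to 1.17), passed 1.5-fold, and 3.42% of all genes did in either direction. It rested on 54 and 78 expected counts. With spike-in totals as the scale it was at 0.26 and did not pass, whereas Sema3e and Sema7a passed towards pool 1, at −0.77 and −0.78.

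Among genes with more counts, the widest differences were in class 3 and Nrp1. Sema3c was higher in pool 2 by a log2 ratio of 0.55 (0.44 to 0.65), Sema3a by 0.42 (0.34 to 0.51) and Nrp1 by 0.28 (0.20 to 0.36). Sema3e ran the other way, at −0.40 (−0.60 to −0.20). For Sema7a the interval, −0.99 to 0.15, spanned equality. Plxna2 was higher in pool 2 by 0.24, Sema6a by 0.21, Sema6c by 0.16 and Sema6d by 0.14, and Sema5b was higher in pool 1, at −0.20. In all, the interval excluded equality for 11 members higher in pool 2 and 4 higher in pool 1, or 15 of 30, where 35% of all genes had such an interval. These intervals narrow as counts rise, and members and all genes were not matched for counts, so the shares do not compare the size of differences. The direction rests on the scaling: 18 of 30 members were higher in pool 2 with TMM and 3 of 30 with spike-in totals, which moved the median of all genes to −0.37. With spike-in totals Sema3c stood at 0.17, Sema3a at 0.050, Nrp1 at −0.092 and Sema3e at −0.77. The pools also differed in their markers: on the same scale the median log2 ratio was 2.25 over 8 skeletal muscle genes, 0.62 over 6 cartilage genes, 0.39 over 9 hindbrain position genes, 0.27 over 8 mesenchymal genes, −0.54 over 6 surface epithelium genes, −0.31 over 6 blood genes, 0.13 over 8 neuron genes and 0.03 over 8 endothelial genes. The median was 0.32 over 6 forebrain genes, 0.18 over 5 choroid plexus genes and 0.17 over 8 cranial ganglion and neural crest genes. It was 0.10 over 8 microglia genes and −0.08 over 8 radial glia and progenitor genes. The part of these markers in the differences of Sema3c, Sema3a, Nrp1 and Sema3e was not tested. With 2 pools of 1 group no test of these differences exists.

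**Figure D4:**
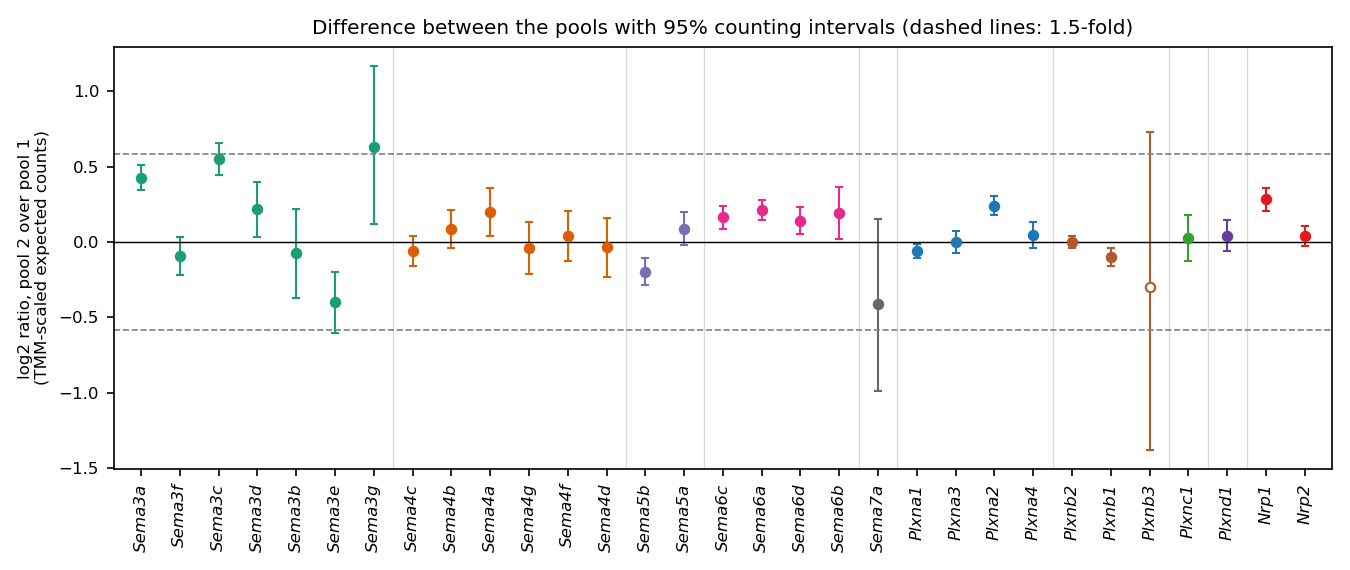
log2 ratio of TMM-scaled expected counts, pool 2 over pool 1, for each gene with its 95% counting interval; dashed lines mark 1.5-fold, and the open circle is Plxnb3, under 50 mean counts. Sema3a, Sema3c and Nrp1 lie above 0 (Nrp1 turned to −0.092 with spike-in totals) and Sema3e below it with narrow intervals, while Sema3g, Sema7a and Plxnb3 have wide ones.

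A count ratio and a TPM ratio can part where transcript use shifts. Plxnd1 was lower in pool 2 by TPM, at 18.99 in pool 1 and 16.83 in pool 2, yet its scaled counts had a log2 ratio of 0.04 (−0.06 to 0.14). Short retained-intron transcripts of Plxnd1, Plxnd1-205 and Plxnd1-204, held on average 16.5% and 16.0% of its TPM but only 1.56% and 1.22% of its counts. Plxnd1-204 held 23.1% of TPM in pool 1 and 8.85% in pool 2, from 30.06 and 9.43 expected counts. Plxnd1-205 moved the other way, from 14.3% in pool 1 to 18.7% in pool 2. The complete-coding level of Plxnd1 was 11.60 TPM in pool 1 and 12.19 in pool 2.

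The annotation moved a few members. Between GENCODE M21 and the older M4, quantified by the authors from the same libraries, 2 members differed by 1.5-fold or more, against 6.68% of all genes and 6.18% of 13761 protein-coding genes. Nrp1 was 1.56-fold higher with M21: M4 holds a single Nrp1 transcript of 5907 bases, which M21 models as 3597 bases beside other transcripts. Its expected counts were 2479 and 2800 with M21 and 2598 and 3019 with M4, so the higher TPM came with fewer counts and shorter models. Sema4g was 1.58-fold higher with M21, where retained-intron transcripts absent from its 3 M4 models held part of the TPM and its expected counts were 575 and 520, against 450 and 402 with M4. Plxnd1 was 1.38-fold higher and Sema3a 1.31-fold. The median ratio over members was 0.955, and that over protein-coding genes 0.952.

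The downstream and partner genes picked for the pathway lists were present almost without exception. These lists were chosen with earlier results of these data known, so their count is no measure of the pathway against other genes. Of 57 genes in 5 lists of the pathway, 56 stood at 1 TPM or more in both pools, which 61.8% of protein-coding genes did. At 5 TPM or more in both pools 47 of them remained. The exception, Timd2, a binding partner described for Sema4a, was listed at 0 in both. Among the 15 co-receptors and partners, Itgb1, the integrin chain that binds Sema7a, stood at 141.9 and 156.0 TPM and Nrcam, an adhesion molecule that associates with neuropilins, at 75.13 and 84.24. All 14 genes in the list of kinases and collapsin response mediators were detected. Its highest gene, Cfl1, at 2454 and 2532 TPM, is of neither kind and encodes an actin-severing protein. Dpysl2, the collapsin response mediator needed for the Sema3a response, followed at 581.2 and 708.6. All 15 small GTPases and regulators were detected, led by Rac1 at 318.2 and 344.6 TPM and, by mean level, Rnd3 at 248.7 and 278.2; Rhoa, at 257.2 and 260.6, stood above Rnd3 in pool 1. The 5 genes of the MICAL list were lower, led by Mical1 at 36.26 and 32.72 TPM and Mical3 at 16.03 and 17.40. MICAL enzymes oxidise actin downstream of plexins, and MICAL-like genes were listed beside them. Among the 8 PDZ and scaffold partners, Gipc1, which binds the tails of neuropilins and plexins, stood at 149.6 and 144.4 TPM and Evl at 114.2 and 103.1. By scaled counts, 1 of the 57 genes was 1.5-fold or more higher in pool 2, where 1.79% of all genes were, and 2 were higher in pool 1, where 1.63% were.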

How the data were processed

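Per the labels, each library was made from 10 ng of mirVana RNA by oligo-dT priming and Nextera tagmentation. The authors deposited gene and transcript tables for each pool on mm10, with GENCODE M21 (used here) and with M4. Their deposited expected counts estimate how many reads belong to a feature, without correction for depth. Their deposited TPM values are scaled for effective length and over all entries, so that spike-ins take part of the total. The quantification program and its use of strand are not given in the sources used here. Values of antisense and of overlapping genes are therefore uncertain. Oligo-dT priming and tagmentation may recover long transcripts less well. Molecular identifiers are not mentioned, so duplicate reads could not be set apart. The intervals cover counting error of the expected counts only, and duplicate reads would make them too narrow.

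Levels are mean TPM over the pools with SD. Ratios between pools used expected counts, TMM factors from edgeR 4.0.16 (alternatives: spike-in totals, total counts, and size factors from DESeq2 1.42.0), a prior count of 0.5 and exact binomial 95% intervals. The calculation was also run on simulated counts that held counting error only. That run cannot show how the intervals do with variation between pools or with errors of read assignment. Complete-coding transcripts are those typed as protein-coding in GENCODE M21 without a missing coding start or end. Gene symbols, coordinates and coding sequences come from GENCODE M21, and tRNA and spike-in entries were left out. No test across samples was made, because 1 group of 2 pools allows none. All 31 genes are named by value, with the 2 highest genes of each pathway list and those under 1 TPM. Members and lists were chosen with earlier results of these data known. R 4.3.3 was used for scaling, and Python 3.11.15 for the rest, with numpy 2.4.6, pandas 2.3.3, matplotlib 3.10.9 and scipy 1.17.1.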

Additional observations from a re-analysis of the deposited data

How the results depend on the processing

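No paired analysis was possible because there is only 1 group. Levels are most sensitive to which transcripts are counted. With complete-coding transcripts only, an alternative chosen after seeing the data, summed TPM was 55.9 for class 3, 63.3 for class 4, 27.6 for class 5, 70.3 for class 6, 89.5 for plexin A, 93.2 for plexin B, 11.9 for plexin D and 62.6 for neuropilins, and receptors over ligands 1.20. With GENCODE M4, plexin A summed to 116.0 TPM, plexin C to 5.37, plexin D to 13.02 and neuropilins to 62.9, and receptors over ligands came to 1.10. With TPM rescaled over genes alone, the sums were 86.9 for class 4, 43.4 for class 5, 140.2 for class 6, 132.1 for plexin A, 176.7 for plexin B, 5.58 for plexin C, 19.7 for plexin D and 83.9 for neuropilins. Scaling by spike-in totals gave a median log2 ratio of −0.33 over members, and −0.37 over all genes, so members stood 0.04 above all genes as before. It turned Sema6c to −0.21, Sema6a to −0.16, Nrp1 to −0.092, Plxna2 to −0.13, Sema6d to −0.23, Sema4a to −0.17, Sema6b to −0.18 and Sema3d to −0.16, and 2 members, Sema3e and Sema7a, then passed 1.5-fold towards pool 1 while Sema3g did not pass. Plxna1 turned to 0.042 on log2(TPM + 0.1). No member passed 2-fold between pools or between annotations (0 and 0). The top isoform held under 50% in 9 members, and under 60% of counts, also chosen after seeing the data, in 8. With either pool alone, 28 or 29 members stood at 1 TPM or more. Sema3g, Sema7a and Plxnb3 are limited by their low counts.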

Other observations

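Some members that lie close together on a chromosome differed widely in level. Sema3d, Sema3a, Sema3e and Sema3c lie within 5.35 Mb of chromosome 5 and spanned an 8.06-fold range of mean TPM. Sema3b and Sema3f lie 72.3 kb apart on chromosome 9 and differed 5.42-fold. Plxnb3 and Plxna3 lie 557 kb apart on the X chromosome and differed 221-fold. Sema3f and Plxnb1, 1385 kb apart on chromosome 9, differed 1.44-fold, and Plxna4 and Sema4f, adjacent members on chromosome 6 but far apart, 1.05-fold.

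Promoter windows of the 250 bases before a start site, from RefSeq (GRCm38.p6), were on hand for 26 of the 31 genes; Plxna1, Plxna4, Sema3b, Sema3f and Sema6a had no entry. The dinucleotide CG, the same on both strands, was counted in each. The 37 windows of these genes had a median of 13 and all 32851 windows one of 6, and 21 of the 37 held 10 or more, as did 37.8% of all. The X-linked neighbours are printed as the pair of widest contrast in level, with CG in capitals, at chrX:74328816-74329065 for Plxna3 and chrX:73756853-73757102 for Plxnb3, both on the plus strand.
Plxna3: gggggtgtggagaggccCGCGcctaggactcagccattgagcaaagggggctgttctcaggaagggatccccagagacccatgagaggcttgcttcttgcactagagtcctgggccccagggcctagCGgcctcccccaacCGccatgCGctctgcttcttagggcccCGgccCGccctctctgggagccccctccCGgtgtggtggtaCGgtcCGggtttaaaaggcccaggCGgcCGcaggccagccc
Plxnb3: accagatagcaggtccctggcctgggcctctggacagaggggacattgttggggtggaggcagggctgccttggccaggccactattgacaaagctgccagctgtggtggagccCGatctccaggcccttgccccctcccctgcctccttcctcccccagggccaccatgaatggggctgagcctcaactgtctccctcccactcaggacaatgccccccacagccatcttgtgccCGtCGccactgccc
The Plxna3 window held 12, a number that 33.5% of all windows reached, and the Plxnb3 window 3, which 71.0% reached. A low number did not go with a low level throughout, since the Sema3a window held 2 and Sema3a stood at 27.6 TPM. That window lies inside the annotated gene, and Sema3a-207, with 15.5% of the gene's TPM, starts upstream of it. A high number did not go with a high level throughout either, since the Sema7a window held 17 and Sema7a stood at 1.03 TPM.

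Annotated genes overlap 18 of the members, and 4 members are overlapped by a gene at 1 TPM or more in both pools: Plxna2, Sema3e, Sema5b and Sema4c. The share of all genes with such overlaps was not counted, so these counts do not set the members apart from other genes. The same-strand entry Gm43519, inside Sema3e, stood at 3.64 TPM in pool 1 and 2.73 in pool 2, close to Sema3e itself at 3.92 and 2.92, and Gm37783, inside Plxna2, at 4.13 and 5.10. Reads of such overlapping genes cannot be assigned with certainty.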
